A study of Homo sapiens with 26 samples.

Results

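The 2 sublines of HCT116 cells labelled as CDK8 knockouts, CDK8KO-C1 (C1) and CDK8KO-C2 (C2), were set against each other gene by gene, as a measure of how far cells of 1 genotype differ. The comparison takes 6 of the 26 libraries of the series, 3 of C1 and 3 of C2, chosen by their labels, and the 3 libraries of control HCT116 cells are placed beside every difference. The other libraries, CDK19 and double knockouts and cells labelled with JQ1, enter the shared estimate of spread and a range given for chromosome 22. HCT116 is an established human colorectal carcinoma line that lacks mismatch repair. All 9 libraries came from untreated adherent cells in DMEM with fetal bovine serum, and total RNA was sequenced as paired reads of 100 bases. The labels give the knockouts as made with CRISPR, name no guide, and do not say whether a subline grew from 1 cell or whether the replicates were separate cultures. The CDK8 knockout is seen in 2 sublines and control in a single line, and p values measure the spread between libraries of 1 subline or line only.

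CDK8 is the kinase of a module that binds the Mediator complex reversibly. Mediator links transcription factors to RNA polymerase II, and the module, made of CDK8 or its paralog CDK19 with cyclin C, MED12 and MED13, both restrains and supports transcription depending on the gene. In colorectal carcinoma CDK8 is known as a gene that is often gained and that supports Wnt signalling. Cells that carry the same edit can still differ, because each subline descends from its own founders and keeps their gene activity and chromosome content.

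The 9 libraries held 17818750 to 19093094 gene counts each. The table lists 58039 genes, and 17198 of them passed the filter on low counts. ERCC spike-in transcripts made up 2.58% ± 0.0954 of all counts in C1 (SD, n = 3), 2.78% ± 0.561 in C2 and 1.15% ± 0.103 in control, although the labels name a spike-in for control alone. Mitochondrial genes took 8.55% ± 0.0252 of gene counts in C1, 7.97% ± 0.606 in C2 and 7.41% ± 0.723 in control. Of 11 epithelial markers, 8 averaged at least 1 CPM (counts per library scaled for depth) in each group, and their summed level was 7030 to 7170 CPM in C1, 5730 to 6070 in C2 and 4080 to 4600 in control. CDX1 was at 0 in all 9 libraries. The sum hides a split: of the 8 epithelial markers tested, KRT8, KRT18 and KRT19 were higher in C1 and EPCAM, CDX2, CDH1 and CLDN7 in C2, with a median log2 fold change of C1 over C2 of -0.21. Summed fibroblast markers were at 69.4 to 71.3, 50.3 to 55.1 and 31.5 to 37.2 CPM, nearly all from COL1A1 and FBLN1, with DCN, LUM and PDGFRA at 0, while endothelial and leukocyte markers did not pass 1.1 CPM. In bulk RNA, fewer cells of a type and less RNA per cell cannot be told apart.

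The sublines differed in 3636 of the 17198 tested genes, or 21.1% (edgeR quasi-likelihood test, Benjamini-Hochberg adjusted p under 0.05, two-sided, here a called gene). Of these, 1980 were higher in C1, or 11.5% of genes tested, and 1656 were higher in C2, or 9.63%. Most differences were small. Called genes at least 2-fold apart numbered 399, or 2.32% of those tested, 239 of them higher in C1 and 160 higher in C2, and 107 were at least 4-fold apart. Against control, 6736 genes were called for C1 (39.2%) and 5840 for C2 (34%). The median size of the log2 fold change was 0.148 between the sublines, 0.214 for C1 against control and 0.192 for C2 against control. Pairs of libraries gave the same order: the root mean square log2 difference over tested genes was 0.311 to 0.32 within a subline, 0.445 to 0.457 between C1 and C2, 0.518 to 0.54 between C1 and control and 0.496 to 0.522 between C2 and control. Scaling by ERCC counts in place of gene counts cut the calls between the sublines to 966 and changed the split, with 73.1% of calls higher in C1 where gene-based scaling gave 54.5%.

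None of the genes of the kinase module was called between the sublines. CDK8 stood at 43.6, 44.4 and 45.0 CPM in C1, 44.2, 48.3 and 46.6 in C2 and 50.1, 50.4 and 52.2 in control. The libraries of C1 and C2 overlapped, and the log2 fold change of C1 over C2 was -0.06 ± 0.0556 (SE; edgeR adjusted p = 0.462). Every C1 and C2 library lay below every control library. Counts over a whole gene can stay when an edit only shifts the reading frame, so this level does not check the label. CDK19, the paralog, averaged 32.9 ± 0.883 CPM in C1, 35.8 ± 1.48 in C2 and 27.3 ± 2.73 in control (SD, n = 3), and the difference between the sublines was not called (log2 fold change -0.12 ± 0.0708, edgeR adjusted p = 0.242). Log2 fold changes of the 7 module genes ran from -0.12 to 0.26, the upper end for MED12L. The libraries of the sublines did not overlap for 5 of the 7, with MED12, MED12L and MED13L higher in C1 and CCNC and CDK19 higher in C2, where 20.9% of all tested genes had every C1 library above every C2 library and 20% the reverse. Of 26 core Mediator subunits 5 were called, 19.2% against 21.1% of all genes, the largest being MED19 with 17.4 CPM in C1 and 13.5 in C2.

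A small shift of many genes followed a chromosome. Genes of chromosome 22 were higher in C1 than in C2 from one end of the chromosome to the other, by a median log2 fold change of 0.22, or 1.17-fold, over 448 tested genes. Of these genes, 86.2% had a fold change above 0, 191 (42.6%) were called higher in C1, against 11.5% of all genes, and 10 (2.23%) were called higher in C2, against 9.63%. The other 22 chromosomes tested, X among them and Y left out, had medians between -0.04 and 0.02 and between 42.6% and 54.1% of genes above 0. Chromosome 22 held 2.6% of the tested genes and 9.65% of all genes called higher in C1.

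Windows of neighbouring genes showed that the difference was spread along the whole chromosome. When each chromosome was split into runs of 50 to 63 tested genes, the 8 windows of chromosome 22 had medians of 0.16 to 0.28, and the 322 windows elsewhere had medians of -0.11 to 0.13. All 8 thus stood above every other window. Finer windows of 25 to 28 genes were noisier: the 17 on chromosome 22 ran from 0.14 to 0.45, and the highest of 657 others reached 0.36.

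**Figure D1:**
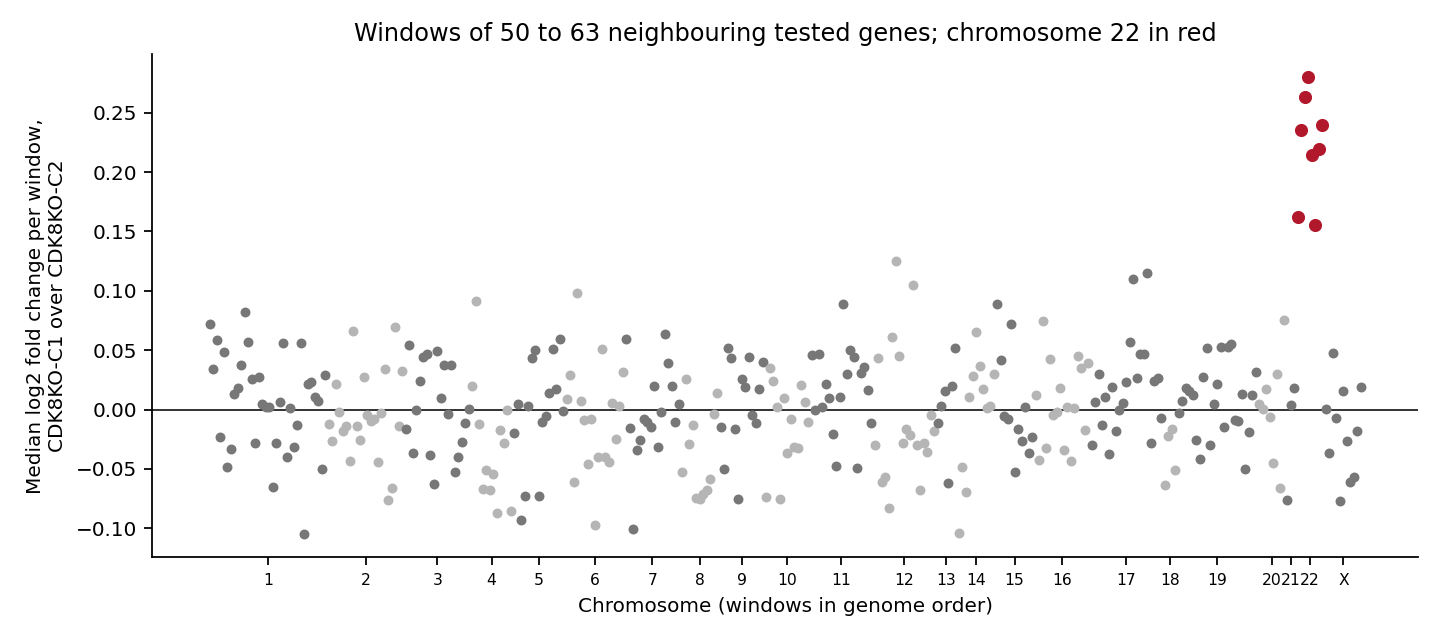
Median log2 fold change of CDK8KO-C1 over CDK8KO-C2 in windows of 50 to 63 neighbouring tested genes, in genome order along the horizontal axis, with 1 point per window and chromosome 22 in red. The 8 windows of chromosome 22 lie between 0.16 and 0.28, above all 322 others.

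The shift was present in every C1 library. Chromosome 22 genes took 2.47%, 2.46% and 2.44% of tested gene counts in the C1 libraries, 2.19%, 2.13% and 2.12% in C2 and 2.07%, 2.10% and 2.11% in control. The libraries of C1 and C2 did not overlap. Chromosome 22 was picked out for its difference between these same libraries, so that separation adds no support. The median log2 deviation of these genes from the control mean was 0.29, 0.28 and 0.28 in C1, and 0.08, 0.04 and 0.03 in C2. All C1 libraries stood above every library of the other groups of the series, which ran from -0.05 to 0.12 (the highest in CDK19KO-C1). Those groups include CDK19 and double knockouts and cells labelled with JQ1. Control lay with C2: the median log2 fold change against control was 0.28 for C1 and 0.05 for C2.

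**Figure D2:**
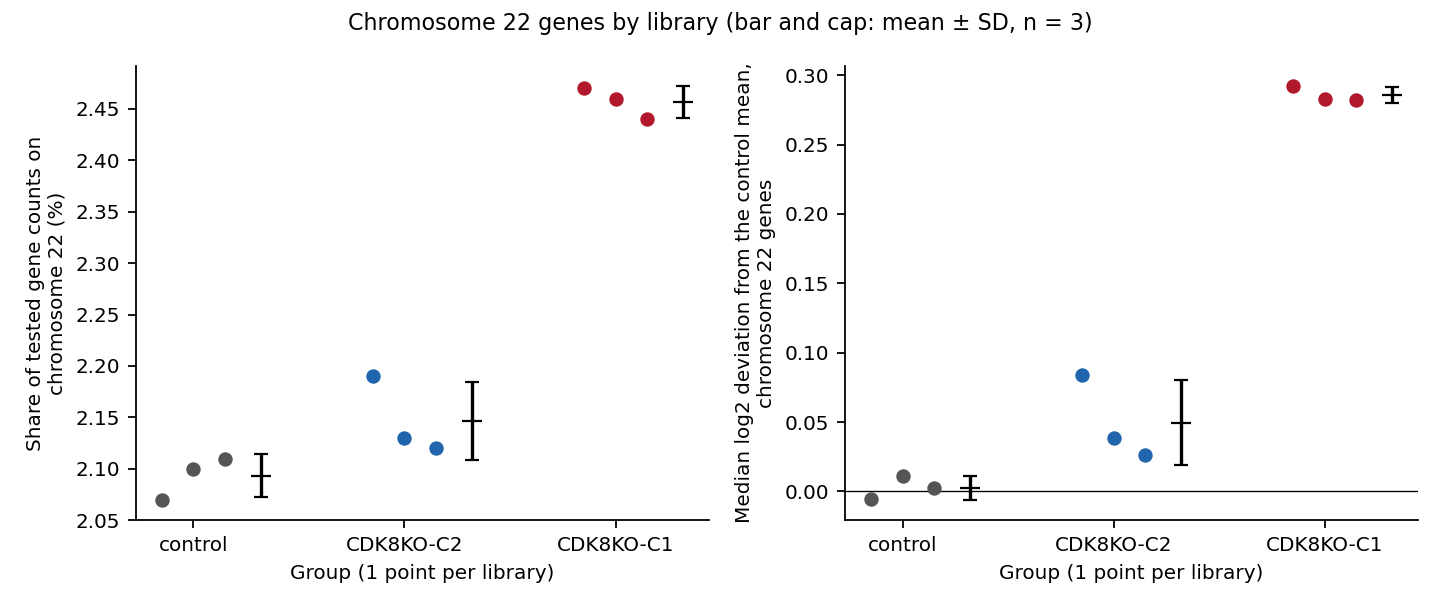
Share of tested gene counts on chromosome 22 (left, in percent) and median log2 deviation of its genes from the control mean (right), 1 point per library, with the mean ± SD of 3 libraries beside the points. The left vertical axis does not start at 0. The 3 C1 libraries lie at 2.44% to 2.47% and 0.28 to 0.29.

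The shift was present at each level of abundance. It was 0.26 for 167 genes of chromosome 22 under 5 CPM, 0.25 for 160 genes from 5 to 50 CPM and 0.19 for 121 genes of 50 CPM and over. In the last class 80 genes (66.1%) were called higher in C1 and 3 lower, and in 102 (84.3%) all 3 C1 libraries lay above all 3 C2 libraries, which holds for 20.9% of all tested genes. The genes below were named by rule or, for PDGFB, LGALS1, LIF, EWSR1 and RPL3, chosen after their values were seen. EWSR1, an RNA-binding protein gene, stood at 522, 522 and 525 CPM in C1, 465, 476 and 481 in C2 and 382 to 386 in control. MED15, the one core Mediator gene named here that lies on the chromosome, averaged 102 CPM in C1 and 85.1 in C2, and PES1, a factor of ribosome assembly, was at 246 to 253 and 200 to 209. XBP1, a transcription factor of the unfolded protein response, was at 98.3 to 103 CPM in C1 and 78.5 to 82.2 in C2. The libraries of C1 and C2 did not overlap for any of these genes.

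Some genes of the chromosome moved further than its median. PDGFB, a growth factor of the PDGF family, was at 73.3, 78.1 and 66.7 CPM in C1 against 23.5, 19.1 and 23.4 in C2 and 16.8 to 26.4 in control (log2 fold change 1.73 ± 0.0964, edgeR adjusted p = 5.87e-17). LGALS1, the galactose-binding lectin galectin-1, averaged 187 CPM in C1, 92.5 in C2 and 156 in control. LIF, a cytokine of the interleukin-6 family, averaged 110 CPM in C1 and 64.2 in C2. A few genes went the other way. RPL3, a ribosomal protein gene, averaged 1210 CPM in C1 and 1390 in C2, and WNT7B, a Wnt ligand, 19.5 ± 1.83 and 25.8 ± 1.09 (SD, n = 3). When the chromosome was left out of the fit, 3401 genes were called, all of them among the 3636.

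Among called genes of at least 5 CPM in a subline with no overlap of libraries, the 12 largest differences in each direction all lay on other chromosomes. PPT1, a lysosomal enzyme that removes fatty acids from proteins, read 104, 103 and 111 CPM in C1, 13.2, 10.3 and 11.9 in C2 and 98.9, 104 and 105 in control. C1 thus overlapped control while C2 was lower by 3.17 ± 0.0657 on the log2 scale than C1 (SE; edgeR adjusted p = 6.23e-30). NECTIN3, a cell adhesion protein of epithelial junctions, read 99.0, 108 and 106 CPM in C1, 10.5, 9.77 and 10.7 in C2 and 86.0, 89.1 and 89.6 in control. Its log2 fold change of C1 over C2 was 3.34 ± 0.0731 (edgeR adjusted p = 2.06e-29). C1 was also called higher than control, by 0.24 ± 0.0571 (edgeR adjusted p = 0.000705).

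WNT16, a secreted Wnt ligand, stood at 51.3 to 54.5 CPM in C1 and 50.2 to 57.7 in control, and at 5.52 to 6.28 in C2. NT5E, the cell surface enzyme CD73 that makes adenosine, followed the same pattern with 68.5 to 70.8 CPM in C1, 69.7 to 81.2 in control and 8.44 to 9.08 in C2. IGF2R, a receptor that carries lysosomal enzymes and takes up insulin-like growth factor 2, averaged 132 CPM in C1, 139 in control and 32.2 in C2. In these genes C2 stood apart and C1 did not differ from control past the threshold (edgeR adjusted p = 0.594 for WNT16, 0.0803 for NT5E and 0.378 for IGF2R). ADAM19, a membrane protease, was lower in both sublines than in control but more so in C2, with 54.0 CPM in C1, 11.3 in C2 and 100 in control.

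The reverse pattern, with C1 apart, was seen for both TNF family ligands among the largest differences. TNFSF4, the ligand of OX40, read 33.2, 33.0 and 31.8 CPM in C1, 2.15, 1.40 and 2.20 in C2 and 2.88, 2.36 and 2.19 in control (log2 fold change of C1 over C2 4.09 ± 0.118, edgeR adjusted p = 1.22e-25). TNFSF18, the ligand of GITR, read 13.8, 11.5 and 11.8 CPM in C1, 1.13 to 1.6 in C2 and 2.57, 4.11 and 2.73 in control, so that C2 was below control as well. The genes lie near each other on chromosome 1, TNFSF18 at chr1:173039960-173050963 and TNFSF4 at chr1:173183734-173207313 (hg38, both on the minus strand). GLIS3, a zinc finger transcription factor, averaged 29.7 CPM in C1, 3.59 in C2 and 4.11 in control. PDGFC, a second PDGF ligand, averaged 64.5 CPM in C1, 9.07 in C2 and 16.1 in control.

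Of the 24 largest differences, promoters of 4 genes are shown for these contrasting patterns: PPT1 and NECTIN3, near control in C1 and low in C2, and TNFSF4 and TNFSF18, low in control and C2 and high in C1. Each runs 5′ to 3′ from 250 bases before to 50 bases after the gene's start in RefSeq (GRCh38.p14), with CG in capitals. RefSeq starts can differ from those of GENCODE, used for the positions above. The windows of PPT1, NECTIN3 and TNFSF4 lie within the span that GENCODE gives the gene.
PPT1 (chr1:40097203-40097502, minus strand): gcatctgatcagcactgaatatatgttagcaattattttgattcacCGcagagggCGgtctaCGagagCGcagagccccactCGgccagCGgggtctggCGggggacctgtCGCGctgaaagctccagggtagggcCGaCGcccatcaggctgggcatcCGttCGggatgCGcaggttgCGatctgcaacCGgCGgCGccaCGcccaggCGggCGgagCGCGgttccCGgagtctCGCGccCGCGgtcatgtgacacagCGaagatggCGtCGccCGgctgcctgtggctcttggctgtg
NECTIN3 (chr3:111071566-111071865, plus strand): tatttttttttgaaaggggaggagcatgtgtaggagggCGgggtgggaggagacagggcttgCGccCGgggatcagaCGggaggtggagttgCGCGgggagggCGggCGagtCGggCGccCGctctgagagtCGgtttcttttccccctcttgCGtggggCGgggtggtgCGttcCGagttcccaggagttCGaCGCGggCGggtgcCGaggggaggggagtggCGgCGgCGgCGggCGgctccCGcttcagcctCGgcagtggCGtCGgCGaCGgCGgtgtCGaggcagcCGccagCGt
TNFSF4 (chr1:173205483-173205782, minus strand): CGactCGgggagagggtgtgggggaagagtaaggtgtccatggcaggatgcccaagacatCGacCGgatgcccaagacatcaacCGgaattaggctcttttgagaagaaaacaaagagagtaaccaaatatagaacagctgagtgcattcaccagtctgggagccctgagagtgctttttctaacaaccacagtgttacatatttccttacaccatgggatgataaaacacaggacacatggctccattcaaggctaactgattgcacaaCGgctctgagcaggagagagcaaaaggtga
TNFSF18 (chr1:173050892-173051191, minus strand): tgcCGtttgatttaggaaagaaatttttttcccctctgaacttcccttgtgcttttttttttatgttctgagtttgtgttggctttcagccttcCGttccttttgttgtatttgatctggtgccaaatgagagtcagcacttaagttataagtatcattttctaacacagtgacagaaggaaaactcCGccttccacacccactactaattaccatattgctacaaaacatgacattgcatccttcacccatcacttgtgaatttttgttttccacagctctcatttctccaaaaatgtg
The letters CG, read on 1 strand since its reverse complement is the same, occur 32 times in the PPT1 promoter and 36 times in that of NECTIN3, and 32.3% and 21.8% of the matched promoters of tested genes hold at least as many. They occur 6 times in the TNFSF4 promoter and 3 times in that of TNFSF18, where 92.3% and 96.9% hold at least as many. NT5E, low in C2 alone, kept to this contrast with 37. Other promoters did not: WNT16 and VIM, also low in C2 alone, had 20 and 10, and GLIS3, high in C1 alone, had 23. DNA methylation was not measured, and the counts describe the sequences alone.

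HTR7, a serotonin receptor, and SEMA3C, a secreted guidance protein, placed control apart from both sublines. HTR7 read 18.4, 18 and 20.3 CPM in C1, 1.38, 1.56 and 1.02 in C2 and 36.2 to 41.1 in control, so both sublines were below control. SEMA3C read 34.2, 31.4 and 33.5 CPM in C1, 1.99, 1.92 and 3.44 in C2 and 16 to 18.1 in control, so control lay between them. VIM, the intermediate filament vimentin of mesenchymal cells, read 5.37, 6.87 and 5.39 CPM in C1, 0.276, 0.416 and 0.483 in C2 and 4.28 to 5.35 in control. For VIM, C1 was called higher than control by 0.33 ± 0.131 on the log2 scale (SE, edgeR adjusted p = 0.0398). C2 was lower than C1 by 3.88 ± 0.223 (edgeR adjusted p = 1.42e-16). VIM overlaps exons of its antisense gene, and the strand setting of the counting is not given. ICAM1, an adhesion molecule for leukocytes, averaged 6.49, 0.915 and 4.58 CPM in C1, C2 and control.

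Of called genes at least 8-fold apart, 27 were higher in C1 and 14 in C2. TTC22, a gene named for its tetratricopeptide repeats, read 7.18, 6.39 and 7.09 CPM in C2, 0.219, 0.222 and 0.222 in C1 and 1.86 to 2.31 in control (log2 fold change of C1 over C2 -4.92 ± 0.263, edgeR adjusted p = 3.56e-17). LCN2, a secreted protein that binds iron carriers of bacteria, read 12.1, 11.2 and 13.4 CPM in C2, 2.91, 2.66 and 3.33 in C1 and 1.15 to 1.92 in control. SYK, a tyrosine kinase, read 16.7, 18.4 and 18.3 CPM in C2, 5.15, 5.71 and 5.05 in C1 and 11.8 to 15.1 in control. Of these 3 genes TTC22 alone was at least 8-fold apart. None of the 3 had overlap between the sublines, with control between the sublines for TTC22 and SYK and below both for LCN2.

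GDF15, a stress-induced hormone of the TGF-beta family, read 99.0, 94.8 and 87.0 CPM in C2, 40.2, 38.3 and 35.2 in C1 and 85.0 to 94.8 in control, so here C2 overlapped control. ADGRF1, an adhesion G protein-coupled receptor, averaged 83.3 CPM in C2, 26.1 in C1 and 105 in control. NFIB, a nuclear factor I transcription factor, averaged 57.7 CPM in C2, 24.7 in C1 and 16.9 in control. PROM2 and C1orf116 were likewise high in C2 alone, at 8.29 and 11.6 CPM against 2.98 and 4.03 in C1 and 2.45 and 5.18 in control. MT-TV, a mitochondrial transfer RNA gene, averaged 30.5 CPM in C2, 11.7 in C1 and 30.1 in control. The rest of the rule's largest genes, HECA, ADCY10P1 and the keratin gene KRT7, had log2 fold changes of -1.22 to -1.20.

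**Figure D3:**
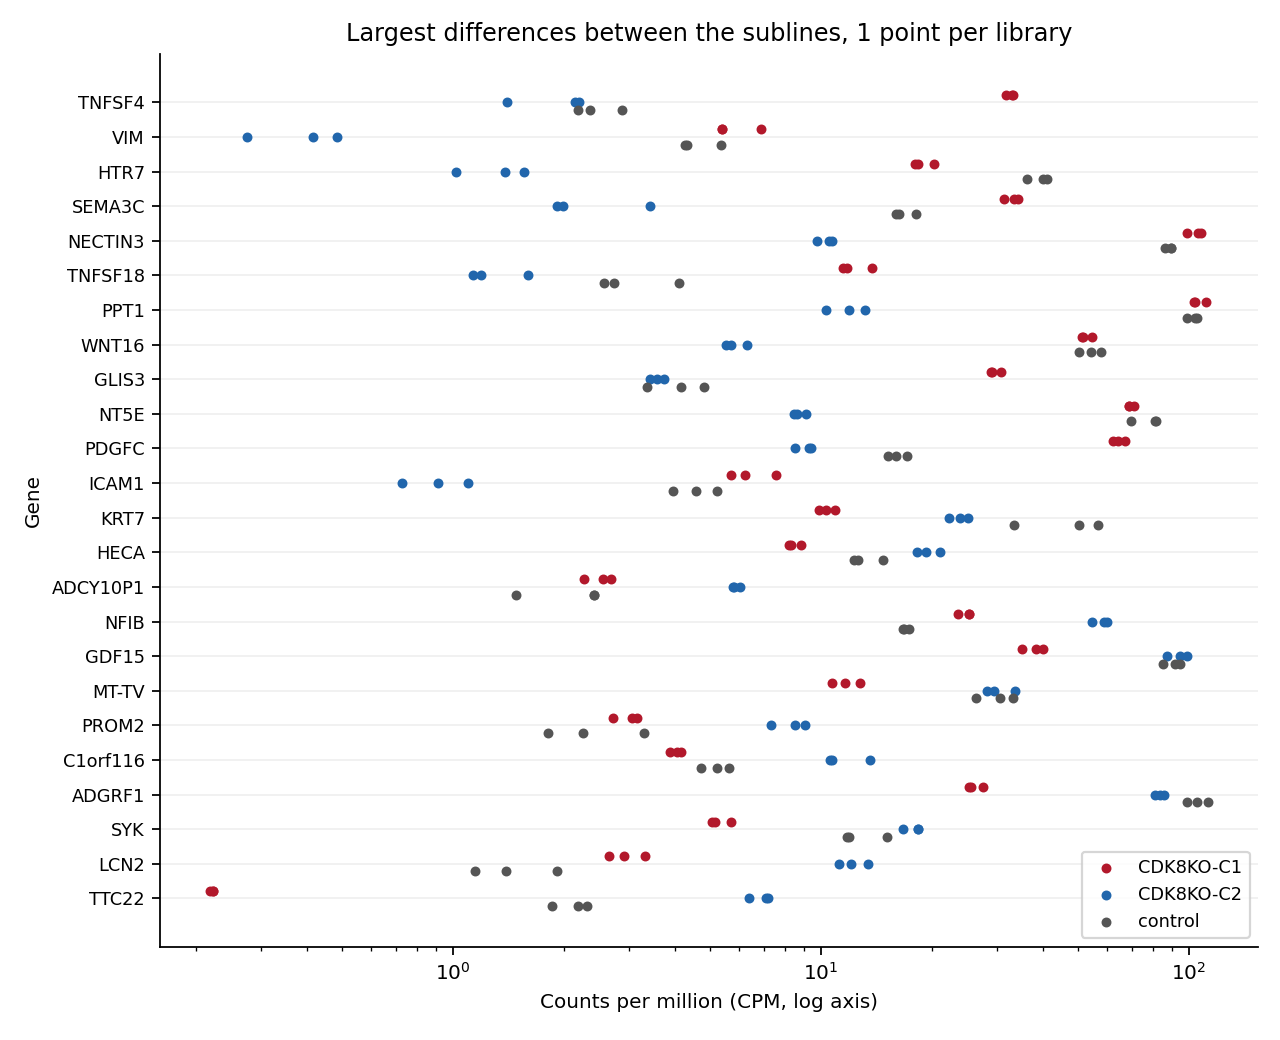
CPM on a log axis of the 12 largest differences in each direction, 1 point per library, with CDK8KO-C1 in red, CDK8KO-C2 in blue and control in grey. For PPT1, WNT16 and NT5E the red points overlap the grey ones while the blue points lie far lower, and for TNFSF4 and GLIS3 the blue points overlap or adjoin the grey ones.

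Taking all 399 genes that were at least 2-fold apart, control did not side with 1 subline. The mean of control lay between the sublines for 246 (61.7%), above both for 82 and below both for 71. Over all tested genes the share between was 25.1%. The 399 genes were chosen for a wide gap between the sublines, which in itself places control inside more often. The excess over 25.1% is therefore not evidence about control. Of the 246, control was nearer to C1 for 122 and nearer to C2 for 124. Among those higher in C1, control was nearer to C1 for 93 of 153, and among those higher in C2 it was nearer to C2 for 64 of 93. Called genes against control that went in opposite directions in the sublines numbered 178, of which 127 were higher in C1 than in control and 51 higher in C2. Both comparisons share the control libraries. With ERCC factors nearly all genes fell below control, by a median log2 fold change of -1.20 in C1 and -1.27 in C2, and 27 genes went in opposite directions, so the counts placed beside control above hold for scaling by gene counts.

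Large differences also came in neighbouring genes. Of the 399 genes, 46 (11.5%) formed 25 pairs that were adjacent among tested genes and moved the same way. Gaps within a pair ran from 0 to 938 kb. Of tested genes 2.32% were at least 2-fold apart, a share of single genes that is not a matching background for pairs. Next to NECTIN3 lay CD96, at 0.92 CPM in C1 and 0.372 in C2, and ZBED2, at 26 and 9.25 CPM with 39.6 in control. TM4SF18, a tetraspanin-like membrane protein, averaged 32.5 CPM in C1, 5.20 in C2 and 2.36 in control, and its neighbour TM4SF1 averaged 0.331, 0.0536 and 0. SAMD3 and TMEM200A were at 0.92 and 17.5 CPM in C1 against 0.179 and 3.29 in C2. DUSP6, a phosphatase that limits ERK, averaged 212 CPM in C1 and 87.1 in C2, and LINC02458, the next tested gene, 2.58 and 0.319. Many pairs have no gap between the genes, such as VIM with VIM-AS1 and SERTAD4 with SERTAD4-AS1. Where such genes overlap, their reads may not be told apart without the strand. These genes were chosen after their values were seen, apart from those the rule names.

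Gene groups were counted next, over 48 lists with 949 tested entries. Each count below is to be read against the share of all tested genes called, 11.5% higher in C1 and 9.63% higher in C2, or 4.11% and 1.51% with ERCC factors. Calls depend on abundance: with a minimum of 5 CPM, 1881 of 11379 genes were called higher in C1 and 1484 higher in C2. Of the 949 entries 788 passed that minimum, so the shares over all genes are a low background for most lists. Of 14 tested mesenchymal genes 8 (57.1%) were higher in C1 and 0 higher in C2, with a median log2 fold change of 0.52 beside 0.00 for all genes. Besides VIM, SPARC, a matrix protein, was at 4.93, 5.15 and 4.11 CPM in C1, 1.38, 1.14 and 1.18 in C2 and 0.214 to 0.438 in control. ZEB1, a repressor of epithelial genes, was at 8.17, 8.59 and 6.83 CPM in C1, 2.26, 3.01 and 2.74 in C2 and 5.21 to 7.81 in control. TWIST1, another such factor, averaged 2.23 CPM in C1 and 1.20 in C2. The libraries did not overlap for any of these, though control sided with C1 for ZEB1 and VIM and lay below both sublines for SPARC. Summed fibroblast markers were higher in C1 as well, as given above, with PDGFRA, DCN and LUM at 0, and FBLN1 lies on chromosome 22; their part in these results was not tested.

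Of 20 tested target genes of YAP and TEAD, the factors that respond to cell shape and attachment, 14 were higher in C1 and 1 in C2, with a median of 0.46. NT5E, described above, belongs to the list. CTGF, a secreted matrix protein and standard YAP target, was at 10.0, 11.1 and 10.9 CPM in C1, 4.36, 6.29 and 5.26 in C2 and 1.84 to 6.80 in control. PTPN14, a phosphatase that binds YAP, averaged 119 CPM in C1, 62.7 in C2 and 66.2 in control, and F3, tissue factor, 104, 62.2 and 60.3. With ERCC factors 11 of the list were higher in C1 and 0 higher in C2. C2 and control overlapped for CTGF and F3.

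Integrins and matrix genes were called in both directions, against 11.5% of all genes higher in C1 and 9.63% in C2. Of 17 integrins 8 were higher in C1 and 2 in C2 (median 0.27), of 23 collagens and laminins 9 and 2 (0.30), and of 20 actin-binding and contractile genes 10 and 2 (0.15). ITGB8 averaged 37.5 CPM in C1, 19.2 in C2 and 7.44 in control. ITGA2, a collagen receptor subunit, was the other way at 44.9, 63.4 and 79.7 CPM. COL12A1, a collagen of the fibril surface, was at 247 to 261 CPM in C1, 81.1, 88.7 and 94.3 in C2 and 173 to 204 in control, and COL13A1, a membrane collagen, averaged 23.2, 5.21 and 5.59 CPM. VCL, which ties integrin contacts to actin, averaged 288 CPM in C1, 140 in C2 and 228 in control. TAGLN and MYL9, smooth muscle type proteins, were higher in both sublines than in control, at 23.3 and 150 CPM in C1, 14.4 and 108 in C2 and 3.20 and 36.5 in control. VCAN, a proteoglycan of the matrix, was at 241 to 261 CPM in C1, 110 to 131 in C2 and 110 to 129 in control. With ERCC factors the calls higher in C1 fell to 3 integrins, 4 collagens and laminins and 3 actin-binding genes, against 4.11% of all genes.

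Intestinal and epithelial genes were called in both directions. Of 8 tested intestinal identity genes 6 were higher in C2 and 1 in C1 (median -0.54). HNF4A, a transcription factor of gut and liver epithelium, was at 6.95, 7.07 and 6.55 CPM in C2, 3.40, 3.21 and 3.78 in C1 and 7.54 to 8.86 in control. HNF4G averaged 3.91, 2.43 and 4.03 CPM in C2, C1 and control, and FUT2, a fucosyltransferase, 8.69, 5.71 and 5.62. With ERCC factors 2 of the list were called higher in C2, and HNF4G and FUT2 were not among them. Of 21 epithelial junction genes 8 were higher in C2 and 3 in C1 (median -0.12). TJP3, a tight junction scaffold, averaged 25.8 CPM in C2, 13 in C1 and 19.8 in control, and ELF3, an epithelial transcription factor, 73.8, 46.7 and 44.4. PKP3, a desmosome protein, was higher in C1, at 121 to 126 CPM against 62.3 to 65.6 in C2. With ERCC factors 2 junction genes remained higher in C2 and 1 in C1. Not all epithelial genes followed: the keratins KRT8, KRT18 and KRT19 of the marker list were higher in C1, and of 17 keratins tested 6 were higher in C1 and 4 in C2.

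Lists of growth factor signalling came next. Of 16 genes that report MAPK activity 6 were higher in C1, 0 in C2 and 10 not called (median 0.24). DUSP6 was at 210, 221 and 205 CPM in C1, 86.2, 86.1 and 89.2 in C2 and 99.1 to 119 in control. FOSL1, a partner of JUN in AP-1, averaged 172, 101 and 142 CPM in C1, C2 and control, and SPRY4, a feedback inhibitor, 85.7, 61.5 and 99.6. Of 22 immediate early genes 10 were higher in C1 and 4 in C2 (median 0.29). EGR1, the best known of them, was at 51.0, 45.5 and 29.6 CPM in C1, 16, 17.8 and 16.8 in C2 and 26.1 to 40.6 in control, so that C1 varied between libraries and overlapped control. Of 13 EGF family genes 6 were higher in C1 and 1 in C2 (median 0.04). AREG, a ligand of the EGF receptor, was at 66.0 to 68.2 CPM in C1, 24.2 to 26.8 in C2 and 114 to 147 in control, and EREG, a second ligand, averaged 592, 358 and 992, so both sublines were below control. With ERCC factors 5 MAPK output genes, 10 immediate early genes and 5 EGF family genes were higher in C1.

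Among Wnt target genes 7 of 16 were higher in C1 and 2 in C2 (median 0.11). BMP4, a secreted morphogen, was at 502, 515 and 513 CPM in C1, 230 to 240 in C2 and 129 to 146 in control. RNF43 and AXIN2, feedback inhibitors of the pathway, averaged 112 and 28.9 CPM in C1, 68.4 and 18.5 in C2 and 82.1 and 20.2 in control, although both share sequence with other gene models (67.0% and 35.4% of their 50-base words) and are uncertain. Of 37 tested cell cycle genes of G1 and S phase 2 were higher in C1 and 9 in C2 (median -0.01). Those higher in C2 included MCM2, MCM3, MCM4, PCNA and RRM2. With ERCC factors 2 of this list were called higher in C1 and 1 in C2. CDK6, a G1 kinase, averaged 236 CPM in C1, 129 in C2 and 135 in control. CDKN1B, which inhibits G1 and S phase kinases, averaged 45.4, 70.5 and 35.7 CPM. Of mitosis genes 7 of 25 were higher in C1 and 0 in C2, with a median of 0.08, and 0 were called with ERCC factors. MKI67, a marker of proliferating cells, was at 968, 983 and 973 CPM in C1, 729, 796 and 889 in C2 and 882 to 936 in control.

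HCT116 cells carry p53 in normal form. Of 26 tested target genes of p53, 14 were higher in C2 and 1 in C1 (median -0.20), against 9.63% and 11.5% of all genes. GDF15, described above, had the largest difference. CDKN1A, the cell cycle inhibitor p21, was at 123, 123 and 118 CPM in C2, 83.7, 88.7 and 89.9 in C1 and 112 to 128 in control. FAS, a death receptor, was at 18.4, 15.1 and 16.2 CPM in C2, 9.60, 10.8 and 9.61 in C1 and 12.7 to 14.6 in control, and BBC3, which encodes the cell death protein PUMA, averaged 10.1, 6.45 and 8.55. PLK2, a kinase that is also a p53 target, was the one member higher in C1, at 172 CPM against 111 in C2. With ERCC factors 4 of the list were called higher in C2, against 1.51% of all genes, and 1 in C1, and CDKN1A was not called.

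Lists of redox defence and metabolism differed among themselves. Of 17 NRF2 antioxidant genes 8 were higher in C2 and 0 in C1 (median -0.17). TXNRD1, thioredoxin reductase, was at 630 to 659 CPM in C2, 385 to 391 in C1 and 590 to 721 in control. NQO1, a quinone reductase, averaged 285, 208 and 367 CPM in C2, C1 and control. Of 24 cholesterol synthesis genes 9 were higher in C2 and 1 in C1 (median -0.12). SQLE, squalene epoxidase, was at 183, 192 and 188 CPM in C2, 84.7, 86.1 and 88.0 in C1 and 136 to 140 in control, and HMGCS1 averaged 115, 87.5 and 94.8. PDIA3, a chaperone that loads MHC class I, was at 463 to 473 CPM in C2, 236 to 255 in C1 and 427 to 452 in control, with 23.8% of its words shared with other gene models. With ERCC factors 3 NRF2 genes and 2 cholesterol genes were called higher in C2. Of 27 fatty acid metabolism genes 4 were higher in C1 and 8 in C2 (median -0.03), and of 29 glycolysis and hypoxia genes 7 were higher in C1 and 4 in C2 (median -0.05).

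Of 35 ribosomal protein genes 17 were higher in C2 and 0 in C1 (median -0.14), and of 32 nuclear oxidative phosphorylation genes 8 and 0 (-0.07), against 9.63% and 11.5% of all genes. With ERCC factors 0 of either list were called, where only 1.51% of all genes were called higher in C2. RPL22 had the largest difference, with 189 CPM in C2, 141 in C1 and 193 in control, and UQCRC2, a subunit of respiratory complex III, averaged 192, 165 and 195. The 13 listed genes of the mitochondrial genome went the other way, with 5 higher in C1 and 0 in C2 (median 0.23), and again 0 with ERCC factors. The list leaves out MT-TV, the mitochondrial transfer RNA gene given above, which was higher in C2. MT-ND4, a subunit of complex I, was at 10500 to 10900 CPM in C1 and 7850 to 9410 in C2, the C2 libraries being spread wider. Integrated stress response genes barely separated the sublines, with 2 of 26 higher in C1 and 5 in C2. Of the list, 20 were called lower than control in C1 and 21 in C2. Of all 17198 tested genes, 3339 were called lower than control in C1 and 2954 in C2. The counts against control hold for scaling by gene counts.

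**Figure D4:**
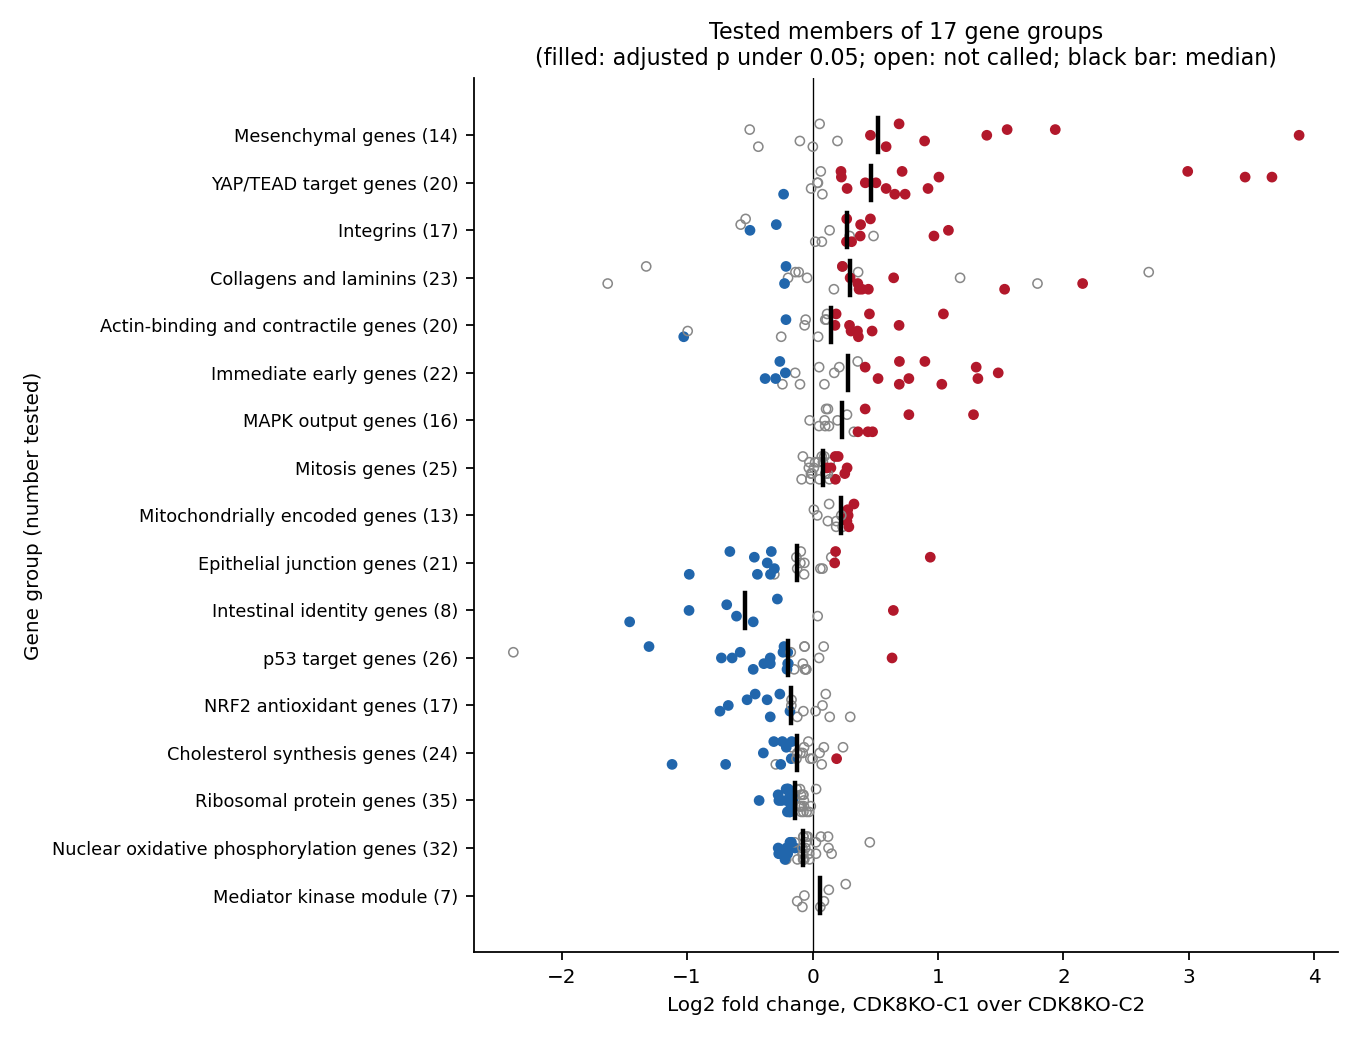
Log2 fold change of CDK8KO-C1 over CDK8KO-C2 for tested members of 17 gene groups, 1 point per gene, filled where called at an adjusted p under 0.05 (red higher in C1, blue higher in C2), open where not, with the group's median as a black bar. Mesenchymal genes and YAP/TEAD targets have medians of 0.52 and 0.46, intestinal identity genes -0.54, and the Mediator kinase module 0.06 with no called gene.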

How the data were processed

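RNA-seq of 26 HCT116 libraries in 9 groups was used, with C1, C2 and control described here. The file holds unnormalised counts, as deposited, for genes and for ERCC transcripts. The authors aligned reads to hg38 with STAR 2.5.2 and counted them with featureCounts of Subread 1.6.3, per the submitters' processing notes; for the annotation release and the strand setting, the sources used here give nothing. Of the columns, 22 were matched to samples by name and 4, all of the double knockout, to a group only, by elimination; these 4 serve the shared estimate of spread and the range over other groups.

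The test was the quasi-likelihood test of edgeR 4.0.16 under R 4.3.3. One model held all 26 libraries, with 17 residual degrees of freedom and TMM factors. Low genes were removed by filterByExpr (count of at least 10, total of at least 15). ERCC rows were left out of the fit. Calls needed a Benjamini-Hochberg adjusted p under 0.05 over 17198 genes. CPM use TMM effective library sizes, except those of the cell type markers, which use total gene counts. No CPM are corrected for gene length, so levels are compared within a gene. Positions come from GENCODE release 29 on hg38, which matched all 17198 tested genes by ID. Depth was even (17818750 to 19093094 gene counts in the 9 libraries), and values under 1 CPM rest on few counts.

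The members and gene lists were chosen with earlier results of these data known. Named are the kinase module; the 12 largest differences in each direction among called genes of at least 5 CPM in a subline with no overlap of libraries; up to 4 called members of each list with at least 2 CPM; the 6 largest genes called in opposite directions against control; and the 6 largest called genes with a median of at least 50 CPM. Clone-based names, chromosome Y and XIST were passed over. Shared sequence is the share of a gene's 50-base words, 1 in 8 used, found in transcripts of other genes.

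Replicate numbers were checked for pairing: over 9 pairs of libraries with the same number, deviations from group means correlated across genes with r of -0.00436 to 0.0233, so the numbers were taken not to pair the samples. The same comparisons were repeated with voom of limma 3.58.1, DESeq2 1.42.0 or its size factors alone, ERCC factors, other filters, the 9 libraries alone, a replicate block, a minimum change of 1.5-fold and each library left out in turn. The fit was tested on simulated data. Values of 1 gene in the lists are not reported here.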

Additional observations from a re-analysis of the deposited data

Results flagged for a closer look

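For 6 genes the 2 sublines were called against control in opposite directions with the largest smaller change. All 178 genes called in opposite directions were also called between the sublines in edgeR's quasi-likelihood test. That call follows from how the genes were chosen and adds no support. For SEMA3C, a secreted guidance protein, the log2 fold change of C1 over C2 was 3.75 ± 0.128 (SE), with 33.0 CPM in C1, 2.45 in C2 and 16.8 in control. For TNFSF18, the ligand of GITR, it was 3.24 ± 0.175. TGM2, an enzyme that cross-links proteins, averaged 35.4 CPM in C1, 6.07 in C2 and 11.5 in control and a log2 fold change of 2.54 ± 0.081. SEMA3A, a relative of SEMA3C on the same chromosome, had 25, 5.80 and 11.4 CPM and a log2 fold change of 2.11 ± 0.096. NAV3, a protein of microtubule ends, had 51.9, 12.1 and 22.6 CPM and a log2 fold change of 2.10 ± 0.089. TTC22 went the other way, at -4.92 ± 0.263. The direction of C1 against control for SEMA3C, SEMA3A and NAV3 and of C2 against control for TTC22 rests on scaling by gene counts: with ERCC factors these log2 fold changes were -0.22, -0.05, 0.00 and 0.44 (edgeR adjusted p = 0.176, 0.788, 0.999 and 0.0592). For TNFSF18 and TGM2 both calls and directions were kept.

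ERCC transcripts were counted in libraries whose labels name no spike-in. They made up 2.58% of all counts in C1 and 2.78% in C2, against 1.15% in control, where the labels name one. The C2 libraries held 3.27%, 2.17% and 2.91%, a wider range than the 2.48% to 2.67% of C1, which bears on each value given with ERCC factors.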

How the results depend on the processing

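Calls between the sublines numbered 3292 to 4878 under DESeq2 size factors, DESeq2, voom, no filter, a minimum of 5 CPM, the 9 libraries alone and protein-coding genes, and 2766 to 3675 with 1 library left out. With ERCC factors they fell to 966 (706 higher in C1, 260 in C2), members of lists called fell from 372 to 138, and the chromosome 22 median rose from 0.22 to 0.30; against control 15805 genes were called for C1 (88 higher) and 16194 for C2 (42 higher). Testing for a minimum change of 1.5-fold left 291 calls (192 higher in C1), and a minimum of 5 CPM gave 122 genes at least 2-fold apart (88 higher in C1), 121 of them among the 399, as fewer low genes were tested. With 1 library left out, 364 to 399 genes were at least 2-fold apart, 321 to 398 of them among the 399. The chromosome 22 median was 0.22 to 0.24 with 1 subline library left out. Leaving out the genes of chromosome 22, and ERCC factors for its median, were chosen after seeing the data. With the replicate block 4113 genes were called between the sublines, and 1 of 9 libraries correlated best with its own number. Of 184 named calls the block lost 0, DESeq2 12, voom 4 and ERCC factors 74; none of the 191 named genes reversed. Genes under 1 CPM are limited by depth, and replicates here are libraries of 1 subline.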
